A study of Rattus norvegicus with 11 samples.

Results

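The interleukin-1 system was followed through 8 genes in rat small intestine: Il1b, Il1a, Il18, Il1rn, Il1r1, Il1r2, Casp1 and Pycard. They were chosen by name with earlier results of these data known, so counts over them are not independent support. Each was found as the single probe set that carries its Entrez gene number, so all 8 of 8 were measured among 11427 probe sets. Total RNA was hybridised to 1 Affymetrix array per sample, and every value below is a log2 level as normalized and deposited by the authors. The arrays form 3 groups by their titles. NBD (3 arrays, numbered 1, 3 and 4) came from rats that were not brain-dead and were anaesthetised and ventilated for 6 hours. BD (4 arrays, numbered 1, 3, 4 and 6) came from rats 6 hours after brain death, and BD_VNS (4 arrays, numbered 1 to 4) from brain-dead rats with vagal stimulation, also at 6 hours. All groups share the description transgenic with no gene named, and the sources used here do not give strain, age, the way brain death was induced or the settings of stimulation. For NBD the source entry names BD animals beside ventilation, and the group was taken from the title. Whether each array is a separate animal is not stated, so p-values measure the spread between these arrays, which may be technical.

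Interleukin-1 beta is made as an inactive precursor that the protease caspase-1 cuts, and caspase-1 is itself switched on when a sensor protein and the adaptor ASC assemble into an inflammasome. Interleukin-18 is matured by the same protease, whereas interleukin-1 alpha is active as its precursor and acts as an alarm signal from damaged cells. Both interleukin-1 cytokines bind the receptor encoded by Il1r1, which signals through MyD88 to NF-kB, and they are held in check by the antagonist from Il1rn and the decoy receptor from Il1r2. In the gut, macrophages are a main source of interleukin-1 beta and epithelial cells are a main source of interleukin-18. Arrays of transcripts show neither the cutting of a precursor nor the secretion of a cytokine.

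The arrays had mean log2 levels of 8.169 to 8.178. Genes of small intestinal epithelium averaged 13.06 to 13.46 over 8 measured markers, so markers of the labelled tissue were high in every array. BD 4 and BD 6 stood apart through 16 measured genes of pancreatic acinar cells, whose mean was 13.93 and 13.39 against 6.95 to 7.77 in the other 9 arrays. Results are therefore also given without these 2 arrays. The 3' over 5' signal of control probe sets, a sign of RNA quality, had a log2 ratio of 0.69 to 0.87 in NBD, 0.76 to 0.89 in BD and 0.75 to 1.10 in BD_VNS (2-sided exact permutation p = 0.143 for a difference of 0.14 between BD_VNS and BD). Between BD_VNS and NBD it differed by 0.21 (exact permutation p = 0.0857).

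Of the 8 genes, 3 rose in brain-dead rats, 2 cytokines and 1 protease. Il1b and Il1a, the cytokines, were higher in BD than in NBD and lower again in BD_VNS, at levels near those of NBD. Casp1, the protease, was higher in BD and as high in BD_VNS. Il18, Il1rn, Il1r1, Il1r2 and Pycard did not pass the test in any comparison. With limma, fitted over all probe sets and all 3 groups, 3 of 8 rose in BD against NBD, where 2.1% of all probe sets rose. None of the 8 fell there, against 3.63% of all probe sets. In BD_VNS against BD, 2 of 8 fell (3.66% of all probe sets) and 0 rose (1.9% of all probe sets). In BD_VNS against NBD, 1 of 8 rose (3.64% of all probe sets) and 0 fell (4.8% of all probe sets). Without BD 4 and BD 6 these counts were 2 higher, 1 lower and 1 higher. At an unadjusted limma p under 0.05, 3 of 8 were higher and 2 lower (Il18 and Pycard) in BD against NBD. Of all 11427 probe sets, 2149 reached that unadjusted p there in either direction. In BD_VNS against BD 0 of 8 were higher and 2 lower, beside 2578 of all probe sets. In BD_VNS against NBD 1 was higher and 1 lower, beside 2631 of all probe sets. The median log2 fold change over the 8 genes was 0.01, -0.04 and -0.05 in these comparisons, beside -0.006, 0.026 and 0.014 over all probe sets. The 3 comparisons share arrays in pairs, so a level that is high in BD enters both BD against NBD and BD_VNS against BD.

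**Figure D1:**
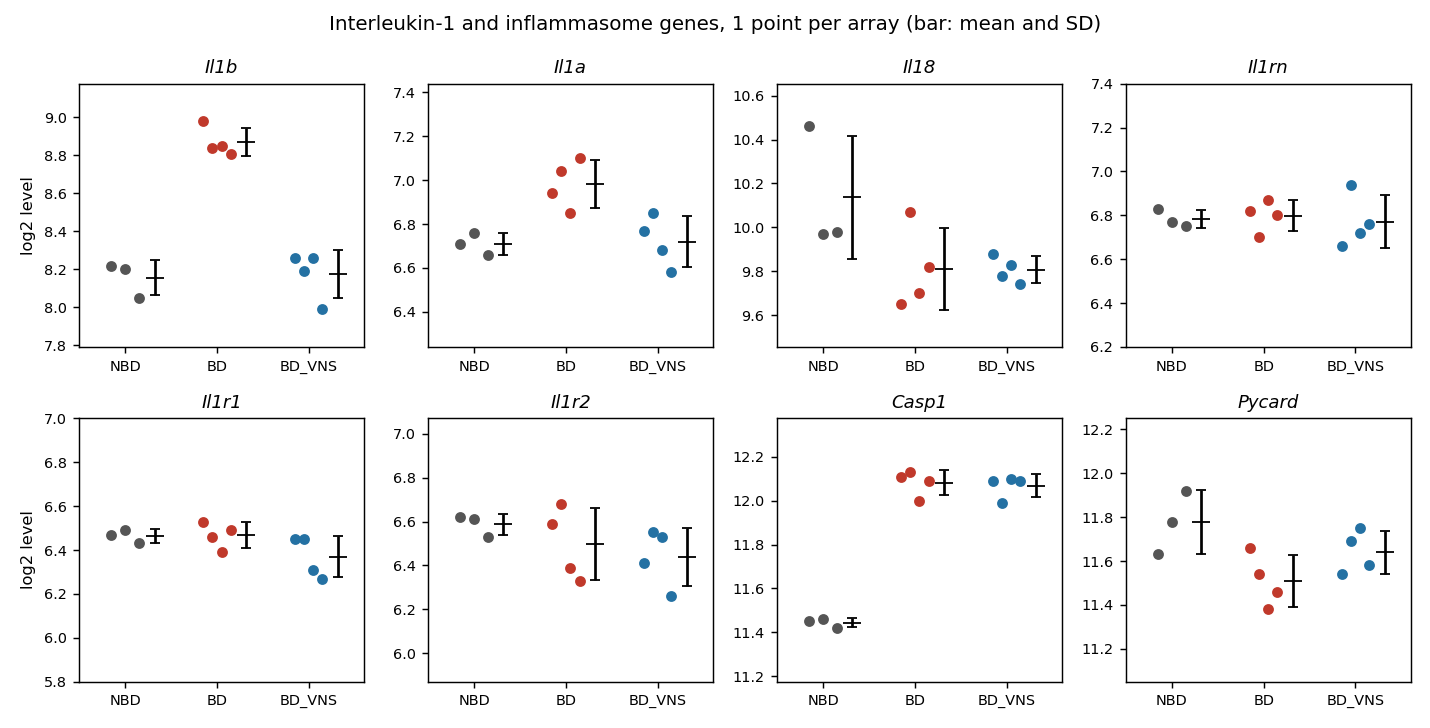
Log2 level of each of the 8 genes (y axis, own range per panel, at least 1.2 log2 units) in NBD, BD and BD_VNS (x axis), with 1 point per array and the group mean and SD beside the points. The BD points of Il1b lie at 8.81 to 8.98, above all others, while for Casp1 the BD and BD_VNS points lie together at 11.99 to 12.13 above NBD.

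Among the ligands, Il1b (Entrez Gene 24494) had log2 levels of 8.22, 8.20 and 8.05 in NBD 1, 3 and 4. It was at 8.98, 8.84, 8.85 and 8.81 in BD 1, 3, 4 and 6, and at 8.26, 8.19, 8.26 and 7.99 in BD_VNS 1 to 4. All 4 BD arrays lay above the other 7, and the NBD and BD_VNS arrays overlapped. The means were 8.16 ± 0.09 (SD, n = 3) in NBD, 8.87 ± 0.08 (SD, n = 4) in BD and 8.17 ± 0.13 (SD, n = 4) in BD_VNS. BD was 1.64-fold higher than NBD (95% interval of the log2 change 0.56 to 0.87), and BD_VNS was 1.62-fold lower than BD (-0.84 to -0.56; limma adjusted p = 0.000933). By its p-value Il1b ranked 3 of 11427 probe sets in BD_VNS against BD and 31 in BD against NBD. Between BD_VNS and NBD the log2 difference was 0.01 with an interval of -0.14 to 0.17 (limma adjusted p = 0.944), which bounds any remaining difference without showing that the levels were equal. Without BD 4 and BD 6 the changes were 0.76 and -0.74.

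Il1a (Entrez Gene 24493), the alarm cytokine of the family, moved in the same order over a smaller range and from a dim signal. Only 18.2% of all probe sets had a lower mean than Il1a. Its levels were 6.71, 6.76 and 6.66 in NBD, 6.94, 7.04, 6.85 and 7.10 in BD, and 6.77, 6.85, 6.68 and 6.58 in BD_VNS. BD lay above NBD and BD_VNS in every array, but BD 4 and BD_VNS 2 both rounded to 6.85. The log2 change was 0.27 ± 0.071 (SE; n = 4 and 3; limma adjusted p = 0.0473) in BD against NBD and -0.26 ± 0.066 (SE; n = 4 and 4; limma adjusted p = 0.0393) in BD_VNS against BD. Both calls sat close to the threshold. The first was lost when BD_VNS 1, BD_VNS 3, BD 1, BD 3, BD 6 or any NBD array was left out (adjusted p 0.0265 to 0.146 over 11 single arrays left out). The second was lost without any BD array but BD 4, any BD_VNS array but BD_VNS 2, or any NBD array (0.0151 to 0.114).

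Il18 (Entrez Gene 29197), the other caspase-1 substrate, went the other way in brain death without passing. Its levels were 10.46, 9.97 and 9.98 in NBD, 9.65, 10.07, 9.70 and 9.82 in BD, and 9.88, 9.78, 9.83 and 9.74 in BD_VNS. NBD 1 was the highest of all arrays, and BD 3 lay above the other NBD arrays. The log2 difference was -0.33 in BD against NBD (interval -0.60 to -0.06; limma adjusted p = 0.154) and 0 in BD_VNS against BD (-0.24 to 0.25; adjusted p = 0.997). The intervals are those of single genes, so one that leaves out 0 can belong to a gene that does not pass over all probe sets. Without NBD 1 the difference was -0.17 in both brain-dead groups. Over single arrays left out it ran from -0.42 to -0.17 in BD and from -0.41 to -0.17 in BD_VNS.

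The brakes on the pathway and its receptor stayed within narrow limits. Il1rn (Entrez Gene 60582), the receptor antagonist, was at 6.83, 6.77 and 6.75 in NBD, 6.82, 6.70, 6.87 and 6.80 in BD, and 6.66, 6.94, 6.72 and 6.76 in BD_VNS. The 3 groups overlapped, and the log2 change was 0.01 in BD against NBD (interval -0.13 to 0.15) and -0.03 in BD_VNS against BD (-0.16 to 0.10). Il1r1 (Entrez Gene 25663), the signalling receptor, ranged from 6.27 in BD_VNS 4 to 6.53 in BD 1, and Il1r2 (Entrez Gene 117022), the decoy receptor, from 6.26 in BD_VNS 4 to 6.68 in BD 3. For Il1r1 the changes were 0 in BD against NBD (interval -0.12 to 0.12) and -0.09 in BD_VNS against BD (-0.20 to 0.01). For Il1r2 they were -0.09 (-0.29 to 0.10) and -0.06 (-0.24 to 0.12). In BD_VNS against NBD the differences were -0.01 for Il1rn (-0.15 to 0.13), -0.09 for Il1r1 (-0.21 to 0.02) and -0.15 for Il1r2 (-0.34 to 0.04). These intervals allow changes of up to about 0.3 log2 units in a gene whose probe set gives a dim signal: 17.2%, 6.55% and 8.44% of all probe sets had a lower mean than Il1rn, Il1r1 and Il1r2.

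Whether Il1b and its antagonist moved apart was asked within each array. The log2 level of Il1b minus that of Il1rn was 1.39, 1.43 and 1.3 in NBD, 2.16, 2.15, 1.98 and 2.01 in BD, and 1.60, 1.25, 1.53 and 1.24 in BD_VNS. Only the shift of this difference between groups can be read, since signals of 2 probe sets are not on a common scale. It rose by 0.70 in BD against NBD (2-sided exact permutation p = 0.0286, the smallest that the arrangements allow; 0.0858 after adjustment over 6 tests) and changed by -0.67 in BD_VNS against BD (exact p = 0.0286, 0.0858 after adjustment). The 4 BD arrays lay above the other 7, but the adjusted values did not pass 0.05, which 6 tests of this size could reach only with at least 4 at the smallest p. The same difference for Il1r1 minus Il1r2 shifted by 0.09 in BD against NBD (exact p = 0.371) and by -0.04 in BD_VNS against BD (exact p = 0.714).

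**Figure D2:**
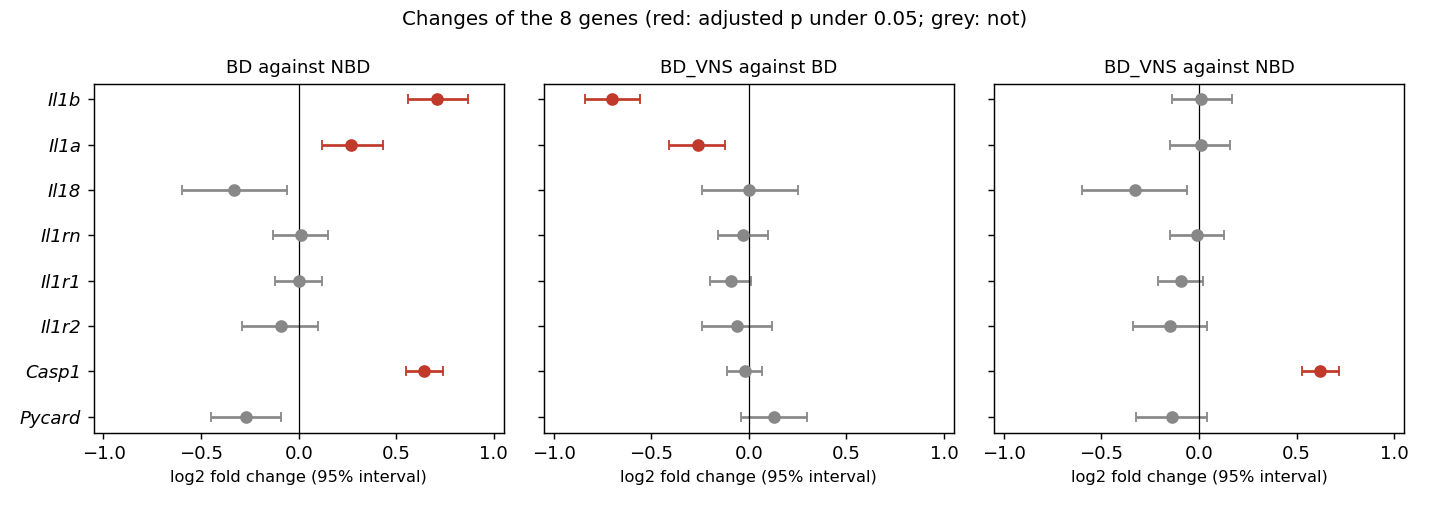
Log2 fold change (x axis) of the 8 genes (y axis) in BD against NBD, BD_VNS against BD and BD_VNS against NBD, each with its 95% interval from limma; red marks an adjusted p under 0.05. Il1b is at 0.71, -0.70 and 0.01, and Casp1 at 0.64, -0.02 and 0.62.

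Of the inflammasome genes, Casp1 (Entrez Gene 25166) gave the most even separation. It was at 11.45, 11.46 and 11.42 in NBD, 12.11, 12.13, 12.00 and 12.09 in BD, and 12.09, 11.99, 12.10 and 12.09 in BD_VNS. All 8 brain-dead arrays, stimulated or not, lay above the 3 NBD arrays by at least the gap from 11.46 to 11.99. BD was 1.56-fold higher than NBD (log2 fold change 0.64 ± 0.044, SE; n = 4 and 3; limma adjusted p = 1.07e-05) and BD_VNS was 1.54-fold higher than NBD (0.62 ± 0.044, SE; n = 4 and 3; adjusted p = 1.57e-05). By p-value Casp1 ranked 8 and 7 of 11427 probe sets in these comparisons. Between BD_VNS and BD the difference was -0.02 with an interval of -0.11 to 0.07 (adjusted p = 0.831). The interval does not reach the change of Il1b. Within arrays, the level of Il1b minus that of Casp1 shifted by -0.68 in BD_VNS against BD (2-sided exact permutation p = 0.0286, the smallest possible; 0.0644 after adjustment over 9 tests) and by 0.07 in BD against NBD (exact p = 0.314). This pair was chosen after the data were seen. Without BD 4 and BD 6 the Casp1 changes were 0.68 in BD against NBD and -0.06 in BD_VNS against BD.

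Pycard (Entrez Gene 282817), which encodes the adaptor ASC that brings caspase-1 to the sensor, was at 11.63, 11.78 and 11.92 in NBD, 11.66, 11.54, 11.38 and 11.46 in BD, and 11.54, 11.69, 11.75 and 11.58 in BD_VNS. BD 1 lay above NBD 1, and the other BD arrays below all NBD arrays. Its log2 difference was -0.27 in BD against NBD (interval -0.45 to -0.09; limma adjusted p = 0.0875) and 0.13 in BD_VNS against BD (-0.04 to 0.30; adjusted p = 0.34). With array weights, or without BD 1, Pycard passed downward in BD against NBD (limma adjusted p 0.0219 to 0.363 over the alternatives). Without BD 4 and BD 6, the arrays with its lowest levels, the difference was -0.18 and did not pass (limma adjusted p = 0.363).

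The bases upstream of Il1b and Casp1 are shown because both genes rose in brain death, while under stimulation Il1b fell and the Casp1 difference was -0.02. They come from RefSeq on build GRCr8, run 5' to 3' on the gene's strand, and end at the base before the start that RefSeq's promoter table uses; 7 of the 8 genes matched that table. The Il1b window is chr3:137036582-137036831 on the minus strand and the Casp1 window chr8:10872580-10872829 on the plus strand. The Casp1 window lies inside the span annotated for the gene, chr8:10746338-10882295, so the start it precedes is not the most upstream one. Capitals mark the TATA box letters TATAAA in Il1b and the match to the interferon-stimulated response element motif in Casp1.
Il1b: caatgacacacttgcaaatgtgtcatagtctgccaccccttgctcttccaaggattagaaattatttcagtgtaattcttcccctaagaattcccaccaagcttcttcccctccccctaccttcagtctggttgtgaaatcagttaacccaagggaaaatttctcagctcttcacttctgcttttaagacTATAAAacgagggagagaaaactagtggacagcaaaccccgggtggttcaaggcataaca
Casp1: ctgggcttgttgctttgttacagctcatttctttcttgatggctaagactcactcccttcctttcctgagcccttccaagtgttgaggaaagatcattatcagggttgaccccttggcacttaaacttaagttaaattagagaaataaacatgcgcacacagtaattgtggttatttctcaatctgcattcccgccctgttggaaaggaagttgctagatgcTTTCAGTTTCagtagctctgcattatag

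Windows of 250 bases were searched on both strands for 4 motifs, which were chosen after the sequences had been seen. TATAAA was found in Il1b 60 to 55 bases before the start, in Il1a and, on the opposite strand only, in Il1rn. On either strand it was in 12.9% of all 33469 such windows. The interferon-stimulated response element motif was found in Casp1 28 to 19 bases before the start and in 3.41% of all windows, and in none of the other 6 genes. It was also found 31 to 22 bases before the start of Gbp2, the gene whose profile over the arrays was nearest to that of Il1b (means of 7.79, 8.36 and 7.63 in NBD, BD and BD_VNS). Icam1, the next nearest to Il1b, had no match to this motif. It had TATAAA 53 to 48 bases before the start, and Gbp2 had none. The gamma-activated site letters TTCNNNGAA were in 0 of the 7 windows and in 7.67% of all windows, and the NF-kB motif was in Il1r1 alone of the 7 and in 3.54% of all windows. Icam1 had the gamma-activated site letters 107 to 99 bases before the start and no NF-kB match, and Gbp2 had neither. A match is a run of letters and not a bound site, and a window with no match says nothing of the factor.

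Beyond the 8 genes, 55 of 80 listed genes of the pathway were measured. In BD against NBD 9 rose and 3 fell, with a median log2 fold change of 0.05, where 2.1% of all probe sets rose and 3.63% fell. In BD_VNS against BD 0 rose and 9 fell, with a median of -0.05, where 1.9% of all probe sets rose and 3.66% fell. At an unadjusted limma p under 0.05, 4 were higher and 19 lower there. Of all 11427 probe sets, 2578 reached that unadjusted p in either direction. In BD_VNS against NBD 4 rose and 3 fell, where 3.64% of all probe sets rose and 4.8% fell. Without BD 4 and BD 6, 5 passed in BD against NBD and 2 in BD_VNS against BD. None of the other ligands and binding proteins measured (Il33, Il36b, Il18bp) passed in any comparison, nor did the other receptors (Il1rap, Il1rl1, Il1rl2, Sigirr) or Mefv, the 1 sensor measured; unadjusted p was under 0.05 for Il36b in BD against NBD, for Il1rl1, Sigirr and Mefv in BD_VNS against BD, and for Il36b, Il1rl1, Sigirr and Mefv in BD_VNS against NBD. Il36b, an epithelial cytokine of the family, had the widest of these differences, at -0.51 in BD against NBD (adjusted p = 0.0836). Nlrp3, Nlrp1a, Nlrc4 and Aim2, sensors of the inflammasome, had no named probe set and were not analysed here.

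Among 13 genes of receptor signalling, Myd88, the adaptor that links the receptor to its kinases, was at 9.71, 9.72 and 9.65 in NBD, 9.95, 9.89, 9.96 and 9.92 in BD, and 9.82, 9.77, 9.80 and 9.79 in BD_VNS. The groups did not overlap, and BD_VNS lay between the other groups. Myd88 rose by 0.24 ± 0.037 (SE; limma adjusted p = 0.00272) in BD against NBD and fell by 0.14 in BD_VNS against BD (adjusted p = 0.0363), a call kept in only 2 of 11 fits that left out 1 array (-0.15 to -0.13, adjusted p 0.0409 to 0.0989; lost without any array but BD_VNS 2 and NBD 4) and not kept without BD 4 and BD 6 (-0.13, adjusted p = 0.174). Nfkb1, the NF-kB subunit precursor, rose by 0.24 in BD and was 0.22 higher than NBD in BD_VNS (adjusted p = 0.0076), with a difference of -0.02 between BD_VNS and BD (interval -0.11 to 0.06). Its BD call was lost without BD 4 and BD 6 (0.22, adjusted p = 0.0518). Map3k8, a kinase that relays the signal to MAP kinases, fell by 0.40 in BD_VNS against BD (adjusted p = 0.00813) from a BD level 0.13 above NBD that did not pass (adjusted p = 0.331). Without BD 4 and BD 6 that difference was -0.37 and just missed the threshold (adjusted p = 0.0521). Map3k8 was also 0.26 lower in BD_VNS than in NBD (log2 fold change -0.26, adjusted p = 0.0383), a call lost in 9 of 19 alternatives, among them without BD_VNS 1, BD_VNS 4, BD 6 or any NBD array (0.0285 to 0.131 over single arrays left out). Traf6, a ubiquitin ligase downstream of Myd88, fell by 0.22 in BD (adjusted p = 0.0208), a call lost without BD 6, NBD 1, NBD 3 or NBD 4 (-0.24 to -0.18, adjusted p 0.0168 to 0.0788 over single arrays left out) and without BD 4 and BD 6 together (-0.16, adjusted p = 0.105).

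Of 11 inflammasome partners and effectors, Casp4, an inflammatory caspase that senses bacterial lipopolysaccharide in mouse and human cells, was also high in both brain-dead groups. It was at 7.95, 8.05 and 7.83 in NBD, 8.50, 8.77, 8.33 and 8.51 in BD, and 8.49, 8.18, 8.39 and 8.35 in BD_VNS. All 8 brain-dead arrays lay above NBD. Casp4 rose by 0.59 ± 0.097 (SE; limma adjusted p = 0.00425) in BD against NBD and differed by -0.18 between BD_VNS and BD (interval -0.37 to 0.02; adjusted p = 0.275). It was 0.41 higher in BD_VNS than in NBD (adjusted p = 0.0233), a call lost without BD_VNS 1, BD_VNS 3, BD_VNS 4, NBD 1 or NBD 4 (0.00978 to 0.0954 over single arrays left out). That call was also lost with the 3' over 5' ratio as covariate (limma adjusted p = 0.19). Ninj1, which tears the membrane of dying cells in mouse, was 0.20 above NBD in BD without passing (adjusted p = 0.118) and fell by 0.36 in BD_VNS against BD (adjusted p = 0.01). Casp12 fell by 0.27 in BD_VNS against BD (adjusted p = 0.0363), a call lost without any BD_VNS array, BD 3, BD 4, BD 6 or NBD 3 (0.0337 to 0.0927) and without BD 4 and BD 6 together (-0.22, adjusted p = 0.131). P2rx7, a channel opened by ATP that triggers the inflammasome, fell by 0.22 in BD against NBD (adjusted p = 0.0491). That call was kept without BD 1 or BD_VNS 2 and lost without any other array (0.02 to 0.22), and without BD 4 and BD 6 together the difference was -0.17 (adjusted p = 0.247).

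Of 23 genes that interleukin-1 is known to induce, 6 rose and 1 fell in BD against NBD (median 0.13). In BD_VNS against BD 0 rose and 5 fell (median -0.12). At an unadjusted limma p under 0.05, 0 were higher and 11 lower there, beside 2578 of all 11427 probe sets in either direction. In BD_VNS against NBD 2 rose and 1 fell. The shares of all probe sets that rose and fell were 2.1% and 3.63% in the first comparison, 1.9% and 3.66% in the next, and 3.64% and 4.8% in the last. Lcn2 was the gene that fell in BD against NBD (-0.24, limma adjusted p = 0.0496). Nfkbia fell in BD_VNS against NBD (-0.66, adjusted p = 0.00363) and was -0.33 in BD against NBD without passing (adjusted p = 0.105). Ptgs2, Il6 and Cxcl2, with group means of 6.33 to 6.64, did not pass in any comparison. Icam1, the leukocyte adhesion molecule, and Ptges, the enzyme that makes prostaglandin E2, rose in BD and fell in BD_VNS. Ptges was at 7.58, 7.62 and 7.63 in NBD, 7.97, 8.01, 8.02 and 7.97 in BD, and 7.63, 7.80, 7.51 and 7.35 in BD_VNS, so that BD lay above the other groups in every array. It rose by 0.38 (limma adjusted p = 0.0177) and fell by 0.42 under stimulation (adjusted p = 0.0111); the change in BD was 0.37 to 0.39 with single arrays left out and missed the threshold without NBD 1, NBD 3 or NBD 4 (0.00231 to 0.0718). Without BD 4 and BD 6 the Ptges changes were 0.38 and -0.42 and neither passed (adjusted p = 0.0928 and 0.0669), nor did the Icam1 difference in BD_VNS against BD (-0.58, adjusted p = 0.0754). Between BD_VNS and NBD Icam1 differed by 0.08 (limma adjusted p = 0.746). That difference ran from -0.06 to 0.39 over 20 alternatives and passed in 1 of them. The chemokine gene Ccl2, which draws monocytes, was at 7.58, 7.89 and 7.68 in NBD, 9.59, 9.03, 9.3 and 9.61 in BD, and 8.2, 8.54, 8.43 and 7.94 in BD_VNS. The groups did not overlap, and BD_VNS lay between the others. Ccl2 rose by 1.67 ± 0.16 (SE; limma adjusted p = 0.000117) in BD against NBD and fell by 1.10 in BD_VNS against BD (adjusted p = 0.00397), and both calls were kept in all 20 alternatives. It was 0.56 higher in BD_VNS than in NBD (adjusted p = 0.0499), a call kept without BD_VNS 4 or BD 3 and lost without any other array (0.0255 to 0.181). Bcl3, a nuclear partner of NF-kB, was high in both brain-dead groups. It was at 8.04, 8.04 and 7.94 in NBD, 8.66, 8.39, 8.47 and 8.57 in BD, and 8.37, 8.47, 8.69 and 8.35 in BD_VNS, and it was 0.46 higher in BD_VNS than in NBD (adjusted p = 0.00605), with a difference of -0.06 from BD (interval -0.22 to 0.11). Many of these genes are also induced by other signals. Tests of the difference between genes were run for the pairs named above and not for these.

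**Figure D3:**
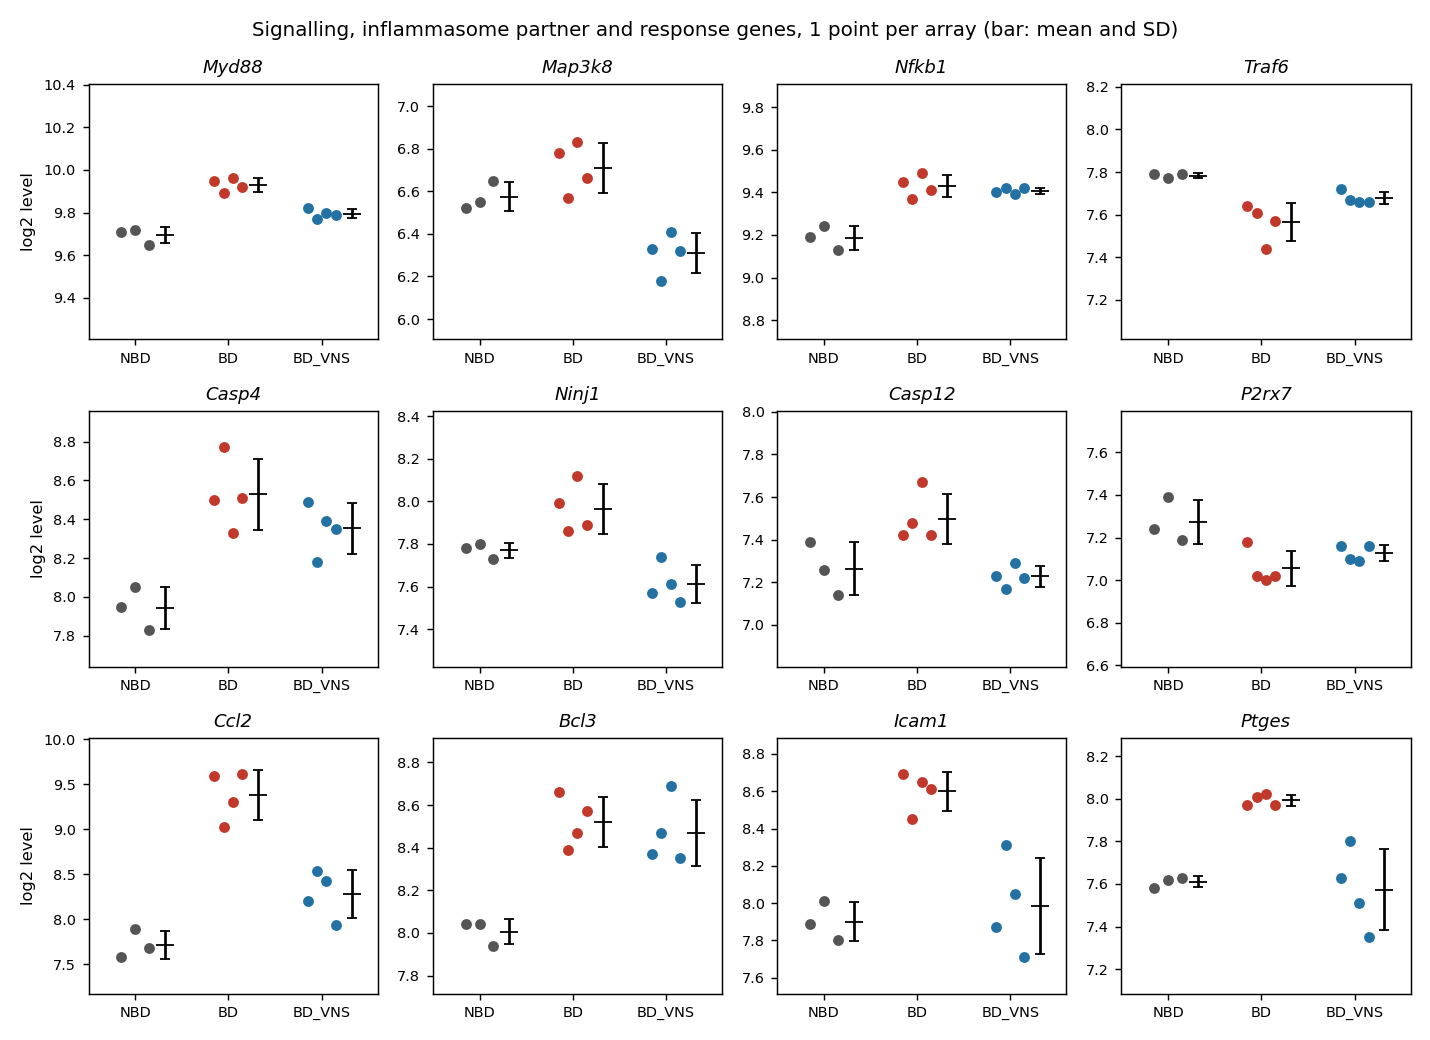
Log2 level (y axis, own range per panel) of 12 named pathway genes in NBD, BD and BD_VNS (x axis), 1 point per array, with the group mean and SD beside the points; signalling genes are on top, inflammasome partners in the middle and response genes at the bottom. For Ptges and Icam1 every BD array lies above all other arrays, whereas Nfkb1, Casp4 and Bcl3 lie above NBD in both brain-dead groups.

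The genes nearest to each changed member were sought over the 11 arrays, as the root mean square difference between log2 profiles that were each centred on their own mean. Nearest to Il1b were Gbp2, an interferon-induced GTPase (0.133 log2 units), Icam1 (0.135), Pdpn, a membrane glycoprotein of stromal and lymphatic cells (0.156), Serpinh1, a collagen chaperone (0.161), and Tcf21, a transcription factor of mesenchymal cells (0.164). The centred profile of Il1b itself had a root mean square of 0.35. Nearest to Il1a were Loxl1 (0.049), Cmtm3 (0.058) and Fstl1 (0.068), beside 0.154 for Il1a itself. Nearest to Casp1 were Fbxo25 (0.101), Tbc1d9 (0.105) and Snx7 (0.106), beside 0.286 for Casp1 itself. Fbxo25 averaged 10.38 in NBD, 10.96 in BD and 10.88 in BD_VNS.

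Markers of other cells moved with some of these changes. The 12 measured macrophage and monocyte genes (of 18 listed) had a mean level of 8.67 to 8.84 in NBD and 8.72 to 8.83 in BD, and 0 passed in either direction with limma in BD against NBD, where Il1b rose. Their mean was 7.98 to 8.50 in BD_VNS, below every BD array. Of the 12, 7 fell in BD_VNS against BD, where Il1b and Il1a fell, beside 3.66% of all probe sets. In BD_VNS against NBD 7 of the 12 also fell, beside 4.8% of all probe sets, while Il1b and Il1a each differed by 0.01. Among the defining genes, C1qa averaged 10.28 in NBD, 10.25 in BD and 9.40 in BD_VNS, and Csf1r 8.60, 8.73 and 7.96. The part of these cells in the fall of Il1b and Il1a was not tested, and in whole tissue fewer cells of a type and less RNA per cell cannot be told apart.

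**Figure D4:**
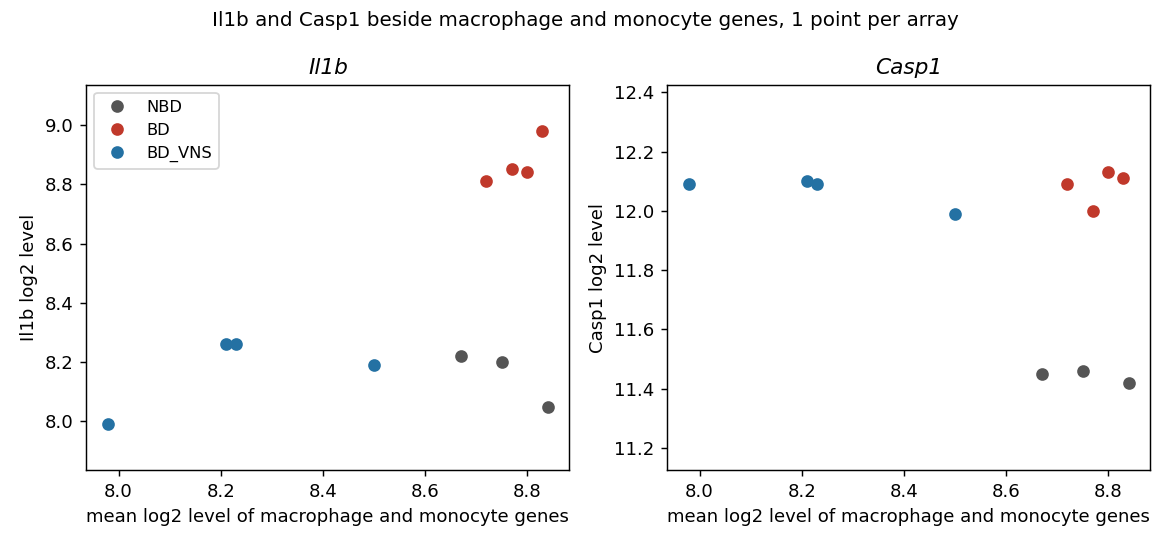
Log2 level of Il1b (left) and Casp1 (right) on the y axis against the mean log2 level of 12 macrophage and monocyte genes on the x axis, 1 point per array, coloured by group. NBD and BD share the range 8.67 to 8.84 on the x axis while their Il1b and Casp1 levels lie apart, and the BD_VNS arrays lie to the left at 7.98 to 8.50.

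Other marker lists stood as follows. For comparison, 2.1% of all probe sets rose and 3.63% fell in BD against NBD. The shares were 1.9% and 3.66% in BD_VNS against BD, and 3.64% and 4.8% in BD_VNS against NBD. The 8 fibroblast and matrix genes had a mean of 10.14 to 10.33 in NBD, 10.39 to 10.67 in BD and 9.50 to 10.05 in BD_VNS. Of the 8, 3 rose in BD against NBD and 6 fell in BD_VNS against BD, where Il1b and Il1a changed in the same directions. The list was not uniform in BD against NBD. The means of Col1a1, Col1a2, Col3a1, Col5a2 and Lum were higher in BD. Those of Dcn, Mgp and Pdgfra were not (11.39, 10.95 and 10.1 in BD, 11.47, 11.07 and 10.14 in NBD). In BD_VNS against NBD 3 of the 8 fell, while Il1b and Il1a each differed by 0.01. The 7 measured neutrophil genes had a mean of 6.60 to 6.73, 6.75 to 6.88 and 6.62 to 6.91, and 0 passed with limma in any comparison. The 8 epithelial genes, markers of a source of Il18, had a mean of 13.40 to 13.46 in NBD, 13.06 to 13.37 in BD and 13.32 to 13.39 in BD_VNS; 2 fell in BD against NBD, 2 rose in BD_VNS against BD and 0 passed in BD_VNS against NBD. Mast cell genes (9 measured) had a mean of 7.45 to 7.49, 7.50 to 7.60 and 6.71 to 7.27; 1 rose in BD against NBD, and 4 fell in BD_VNS against each of the other groups. Endothelial genes (6 measured) had a mean of 7.71 to 7.75, 7.82 to 7.91 and 7.66 to 7.79; 1 rose in BD against NBD and 1 fell in BD_VNS against BD. The remaining means, in the order NBD, BD and BD_VNS, were 6.99 to 7.05, 7.09 to 7.17 and 6.91 to 7.06 for 3 dendritic cell genes, and 7.97 to 8, 7.94 to 8.14 and 7.57 to 7.92 for 11 T and NK cell genes. They were 8.44 to 8.62, 8.56 to 9.30 and 7.79 to 8.65 for 4 B and plasma cell genes, and 9.95 to 10.23, 10.26 to 10.66 and 10.28 to 10.61 for 6 smooth muscle genes. In BD_VNS against BD 1 of the dendritic, 2 of the T and NK and 1 of the B and plasma cell genes fell, and 1 T and NK cell gene fell in BD_VNS against NBD. Smooth muscle genes stood higher in both brain-dead groups, where Casp1 was high; 2 rose in each against NBD. The part of these cells in the changes above was not tested.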

How the data were processed

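The authors' deposited table gives a log2 level for each probe set on 11 Affymetrix rat arrays made from Trizol-extracted RNA with biotin-labelled cRNA, per the labels. Its log2 scale was read from its range; the sources used here do not name the software, background correction, normalization or filters. Probe set IDs are Entrez numbers with 1 probe set per gene. Of 11484 probe sets, 57 controls were left out and 11427 were tested; 11018 had 1 symbol, 0 had several and 409 were unnamed here. RefSeq's gene table held 10996 of these genes and changed 0 symbols.

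Groups follow the titles. One limma 3.58.1 model (R 4.3.3; lmFit, eBayes) held all 3 groups, p-values were adjusted by Benjamini-Hochberg across every probe set, and 0.05 was the threshold for passing. Single values were tested by 2-sided exact permutation of arrays. Arrays limit precision through their number. The members, the lists of other pathway genes and markers, and the tests were chosen with earlier results of these data known, so none is independent support. Named genes were the 8 members, up to 4 genes per pathway role with the smallest p among those passing in BD against NBD or BD_VNS against BD, and the nearest profiles (5 for Il1b, 3 for Il1a and Casp1); Nfkb1, Icam1, Ccl2 and others come from that rule, and the remaining family genes were named after their values were seen. Alternatives were median centring, quantile normalization, a trended and robust eBayes, dropping the lowest 25% of probe sets, only the 2 groups compared, array weights, the replicate number as a block, the 3' over 5' ratio as covariate, leaving out BD 4 and BD 6, and each array in turn. The test of Il1b minus Casp1 was added after the data were seen. The response genes Lcn2, Nfkbia, Ptgs2, Il6 and Cxcl2 were named after their values were seen. On simulated data with 200 of 11427 genes changed by 0.5 log2 units, the fit found 92.2% of them in the BD to NBD comparison, 93% between BD_VNS and BD, and 90.5% between BD_VNS and NBD. It also made 9.6, 7.9 and 9.9 false calls per draw in these comparisons. Changes under 0.5 log2 units, which include many of those above, were not simulated.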

Additional observations from a re-analysis of the deposited data

Results flagged for a closer look

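The following 4 values lay far from the rest of their group of 4 arrays, with a gap to the nearest array that took most of the group's range. Chance alone gives about 1 in 20 such groups, or 3.3 of the 66 groups examined. Casp1 in BD_VNS 2 was at 11.99, below the other 3 BD_VNS arrays at 12.09 to 12.10. Traf6 in BD_VNS 1 was at 7.72, above 7.66 to 7.67 in the others. P2rx7 in BD 1 was at 7.18, above at most 7.02 in the other BD arrays. The within-array log2 difference Il1b minus Casp1 in BD_VNS 4 was -4.10, below -3.84 to -3.80 in the other BD_VNS arrays.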

How the results depend on the processing

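The calls of Il1b in BD against NBD (0.66 to 0.76) and in BD_VNS against BD (-0.74 to -0.64), and those of Casp1 in BD against NBD (0.63 to 0.68) and BD_VNS against NBD (0.58 to 0.65), kept their direction and passed in all 20 alternatives. Differences near 0 changed sign without passing: Il1b in BD_VNS against NBD was -0.04 with array weights and -0.04 to 0.07 with single arrays left out, and Casp1 in BD_VNS against BD was 0.01 with the replicate block and -0.05 to 0.01 with single arrays left out. Members that passed in BD_VNS against BD numbered 1 instead of 2 with median centring, without the lowest 25% of probe sets (which removes Il1a), with only the 2 groups, with the 3' to 5' ratio and without BD 4 and BD 6, and 1 to 2 with single arrays left out. With array weights 2 instead of 1 passed in BD_VNS against NBD, the added one being Il1r1, which was lower (limma adjusted p = 0.0355). All probe sets passing in BD against NBD numbered 655, and 1642 with array weights, 363 with the replicate block, 293 without BD 4 and BD 6 and 317 to 882 with single arrays left out. In BD_VNS against BD there were 635, and 343 with only the 2 groups, 1628 with array weights, 402 with the replicate block, 415 with the 3' to 5' ratio, 152 without BD 4 and BD 6 and 279 to 1108 with single arrays left out. In BD_VNS against NBD there were 965, and 2599 with array weights, 363 with the 3' to 5' ratio and 494 to 1638 with single arrays left out. Other pathway genes passing numbered 12 in BD against NBD, and 22 with array weights, 6 with the replicate block, 5 without BD 4 and BD 6 and 6 to 15 with single arrays left out. They numbered 9 in BD_VNS against BD, 2 without BD 4 and BD 6 and 5 to 9 with single arrays left out, and 7 in BD_VNS against NBD, 20 with array weights and 4 to 8 with single arrays left out. Leaving out arrays lowers the number of samples; the cause of the other moves was not tested.

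Il1b minus Il1rn shifted by 0.66 to 0.73 in BD against NBD and -0.04 to 0.08 in BD_VNS against NBD with single arrays left out, and by 0.78 and -0.75 in BD against NBD and BD_VNS against BD without BD 4 and BD 6. Il1r1 minus Il1r2 shifted by -0.10 to 0.02 in BD_VNS against BD with single arrays left out, and by -0.01 in BD against NBD and 0.07 in BD_VNS against BD without both arrays. Il1b minus Casp1 shifted by -0.66 to -0.54 in BD_VNS against NBD with single arrays left out and by -0.68 in BD_VNS against BD without BD 4 and BD 6. Several of these designs cannot reach an exact p under 0.05. Deviations of same-numbered arrays from their group means correlated at -0.24 to 0.07 across probe sets, so the numbers were not taken as pairs, and the replicate block leaves BD 6 and BD_VNS 2, which share no number, without weight.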
